A study of Mus musculus with 8 samples.

Results

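The 31 genes described here are genes of salivary glands, chosen by name: the products of serous and mucous secretory cells, the channels and regulators that those cells use to secrete, and genes of gland ducts. All 31 were found among the 33136 entries that name 1 gene in the deposited tables. They fall into 11 serous products, 6 mucous products and regulators, 6 genes of acinar fluid secretion and its regulators, 4 ductal genes and 4 other genes. The tissue came from untreated wild-type C57BL/6J mice at 4 sites of the mouth: buccal mucosa (the lining of the cheek), dorsal tongue, ventral tongue and hard palate. Every site had 2 replicates, and each replicate was cut into 20 serial sections of 14 µm whose RNA was sequenced section by section (tomo-seq, with CEL-seq2 libraries, which tag the 3′ end of each transcript with a molecular identifier, or UMI). The labels do not say whether the replicates came from separate mice, so the p-values measure only the spread between these samples. They also do not say which side of the tissue section 1 faces. By edgeR's quasi-likelihood test between sections 1 to 10 and 11 to 20, 12 of 20 keratinocyte genes were called higher in sections 1 to 10, and 11 of 15 skeletal muscle genes higher in sections 11 to 20. Over all 17905 genes tested, 27.6% were called, 2123 higher and 2815 lower in sections 1 to 10.

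Saliva is made by acini, small clusters of secretory cells, and passes through ducts that change its composition. Serous acinar cells release watery fluid rich in enzymes and small proteins, and mucous acinar cells release large glycosylated mucins. The minor glands of the mouth lie below the epithelium of the cheek, the tongue and the palate, so a block of oral mucosa holds gland tissue only where the cut passes through a gland.

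Levels are given as CPM, the UMIs of a gene as a share of all UMIs of its sample or section, scaled to a total of 1e6. Since each transcript is counted at its 3′ end, CPM does not scale with gene length. Because near-identical genes can share 3′ ends, the last 500 bases of each gene's transcripts were compared with all other transcripts. Dcpp1, Dcpp2 and Dcpp3 share 24.9% to 31.6% of their 60-base stretches with each other, Smr3a shares 40.3% with Gm28434 and Lyz1 shares 11.8% with Lyz2. The values of these 5 genes are therefore uncertain. The other members share at most 2.05%.

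Bpifa2, Bpifa1 and Bpifb1 encode secreted proteins of the BPI fold family and lie near each other on mouse chromosome 2, on the plus strand. Bpifa2 was highest in buccal mucosa replicate 2, Bpifa1 in both hard palate samples and Bpifb1 in hard palate replicate 1, as described below. Their promoters are therefore shown. The promoter of Lman1l, a gene related to the cargo receptors of the secretory pathway, is shown for comparison because Lman1l was high in the same sample as Bpifa2. Each sequence is the stretch before the start site, up to 250 bases and ending before any annotated exon (for Bpifb1, which has 2 starts in the table, the first listed), from RefSeq promoters of build GRCm38.p6, 5′ to 3′ on the gene's strand. Capitals mark matches on either strand to TATAAA, the core promoter box, to CAGCTG, a sequence bound by basic helix-loop-helix factors, or to ACGTGG, found in elements of the unfolded protein response. These motifs do not overlap in the sequences shown.
Bpifa2, chr2:154008026-154008264, plus strand: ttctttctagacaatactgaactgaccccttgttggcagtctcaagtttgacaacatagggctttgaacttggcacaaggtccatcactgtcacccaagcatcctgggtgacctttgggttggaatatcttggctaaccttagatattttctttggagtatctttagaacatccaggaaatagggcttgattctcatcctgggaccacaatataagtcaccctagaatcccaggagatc
Bpifa1, chr2:154142630-154142879, plus strand: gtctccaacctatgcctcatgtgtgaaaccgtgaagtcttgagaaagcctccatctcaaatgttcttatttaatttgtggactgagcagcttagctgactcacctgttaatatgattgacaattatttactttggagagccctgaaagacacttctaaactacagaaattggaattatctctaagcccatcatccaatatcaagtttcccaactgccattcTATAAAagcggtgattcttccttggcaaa
Bpifb1, chr2:154190568-154190817, plus strand: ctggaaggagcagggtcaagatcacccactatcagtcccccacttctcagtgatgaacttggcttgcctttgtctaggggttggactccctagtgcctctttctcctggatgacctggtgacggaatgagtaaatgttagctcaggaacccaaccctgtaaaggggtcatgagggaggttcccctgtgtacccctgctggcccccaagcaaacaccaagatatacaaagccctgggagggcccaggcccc
Lman1l, chr9:57620775-57621024, minus strand: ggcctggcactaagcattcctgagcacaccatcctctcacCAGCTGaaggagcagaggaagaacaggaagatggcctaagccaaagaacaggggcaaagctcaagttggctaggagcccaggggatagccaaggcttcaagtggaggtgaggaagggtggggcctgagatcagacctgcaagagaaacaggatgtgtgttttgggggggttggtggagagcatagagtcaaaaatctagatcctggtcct
Of these 4 promoters, Bpifa1 holds a TATAAA, 29 bases before the start, and Lman1l holds a CAGCTG, 210 bases before the start. Of the 26 members with an entry among the promoters, 4 held TATAAA in the 250 bases, against 13% of all 27025 promoters. CAGCTG was held by 3 members against 12.8% of all, and ACGTGG by 3 against 6.9%. These are matches of letters, not sites of binding.

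Summed over the 20 sections, buccal mucosa replicate 2 held the fewest UMIs, 7830471, and hard palate replicate 2 the most, 26376536. Sections ranged from 2523 UMIs, in section 5 of dorsal tongue replicate 1, to 2850676. No entry passed 4240 UMIs in any section, and counts level off towards this value, so the highest levels are understated. Buccal mucosa replicate 2 stood apart from the rest. Its 20 keratinocyte genes summed to 870 CPM, against 28000 to 36771 CPM in the other 7 samples, and its 15 cornified envelope genes to 107 CPM against 14968 to 21612. Of the defining keratinocyte genes, Krt5 was at 40.4 CPM there and between 1629 and 3056 elsewhere, and Krt13 at 69.0 against 3122 to 5053. Its 12 adipocyte genes summed to 7041 CPM, against 58.5 to 1133 elsewhere, its 10 sebocyte genes to 2426 against 89.5 to 227, and its 15 skeletal muscle genes to 42633 against 208 to 22575. The library labelled buccal mucosa replicate 2 thus lacks most of the signal of the labelled epithelium, and the tests of the members are given with and without it. The tests of the other gene lists, keratinocyte and muscle genes included, are given only with it.

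A second set of libraries shared a pattern. In buccal mucosa replicate 1, dorsal tongue replicate 2 and ventral tongue replicate 2, 17 genes had their UMIs in the same section, with at least 20 UMIs there and at least 5 times the next section. Of these, 13 peaked in section 10 and 4 in section 17. The other 25 pairs among the 8 samples shared 0 to 4 such peaks, and the 3 pairs among these samples shared 17, 18 and 21. Members of the gland list made up 6 of the 13 genes in section 10 (Car6, Pip, Prol1, Bpifa2, Dcpp3 and Smr3a) and 1 of the 4 in section 17 (Muc5b). The numbers were close: Car6, a carbonic anhydrase secreted into saliva, had 691 UMIs in section 10 of buccal mucosa replicate 1, 784 in dorsal tongue replicate 2 and 809 in ventral tongue replicate 2. In the other 19 sections of those samples together it had 8, 13 and 11. Pip, prolactin-induced protein, had 216, 273 and 240 UMIs in section 10 and 2, 5 and 3 in the others. Prol1, a proline-rich tear and saliva protein, had 205, 251 and 263 in section 10 and 9, 6 and 10 in the others. The mucin Muc5b had 36, 34 and 29 UMIs in section 17 and 3, 1 and 2 elsewhere. The cause of the sharing was not tested. Except where stated, results that rest on these sections are also given without sections 10 and 17, an alternative chosen after the data were seen.

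**Figure D1:**
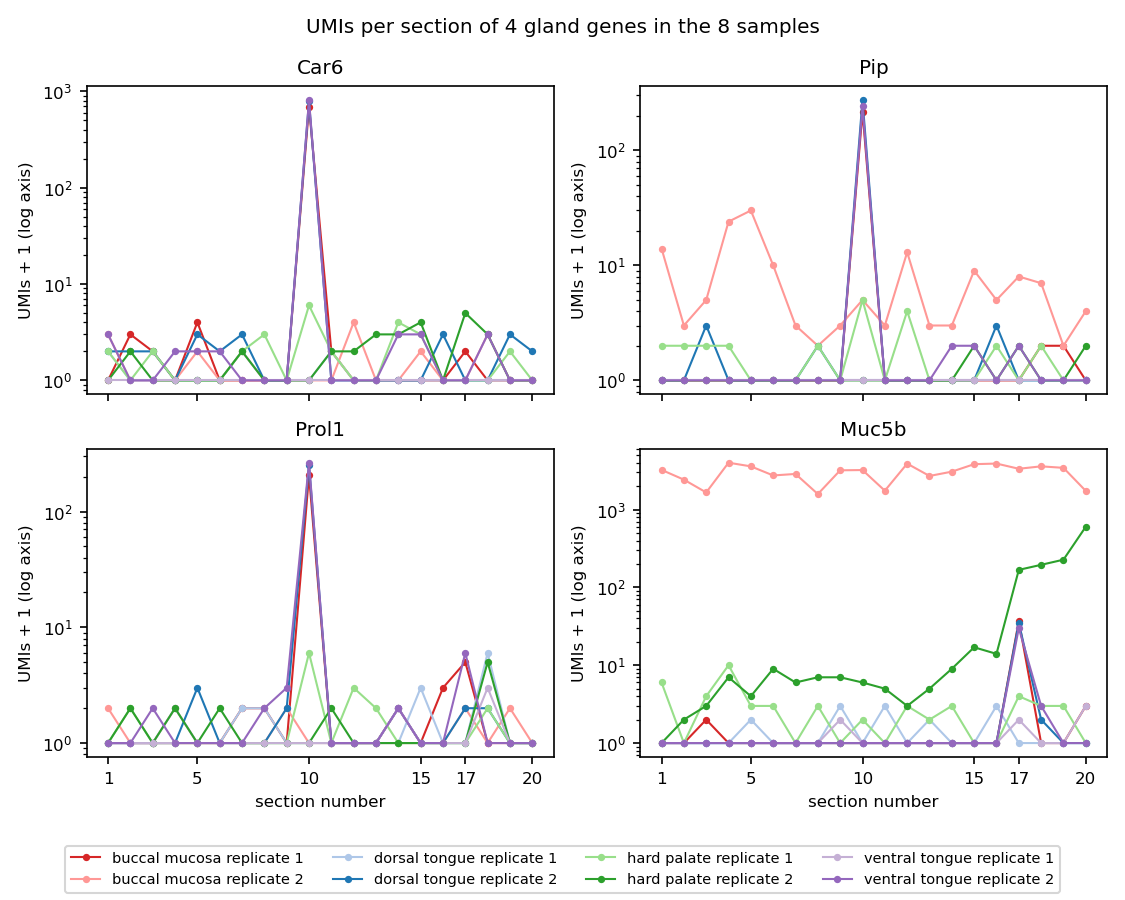
UMIs plus 1 (log axis) of Car6, Pip, Prol1 and Muc5b against section number, with 1 line per sample. Car6, Pip and Prol1 rise to 205 or more UMIs in section 10 of the same 3 samples, and Muc5b to 29 to 36 UMIs in section 17 of those samples, while Muc5b is high in all 20 sections of buccal mucosa replicate 2 and climbs to 601 UMIs in section 20 of hard palate replicate 2.

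The gland genes were highest by far in buccal mucosa replicate 2. Together the 31 members took 20976 CPM there (95% Wilson interval 20876 to 21077, counting error only), against 255 to 464 CPM in the other 7 samples. Of the 31 members, 16 were at least 10 times as high there as in the highest other sample, with samples at or under 3 UMIs set to 3 UMIs. By the same rule 225 of all 33549 entries, or 0.671%, were. Its partner, buccal mucosa replicate 1, did not share this, so the mean and SD of the site describe neither sample. In bulk sections fewer cells of a type and less RNA per cell cannot be told apart.

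**Figure D2:**
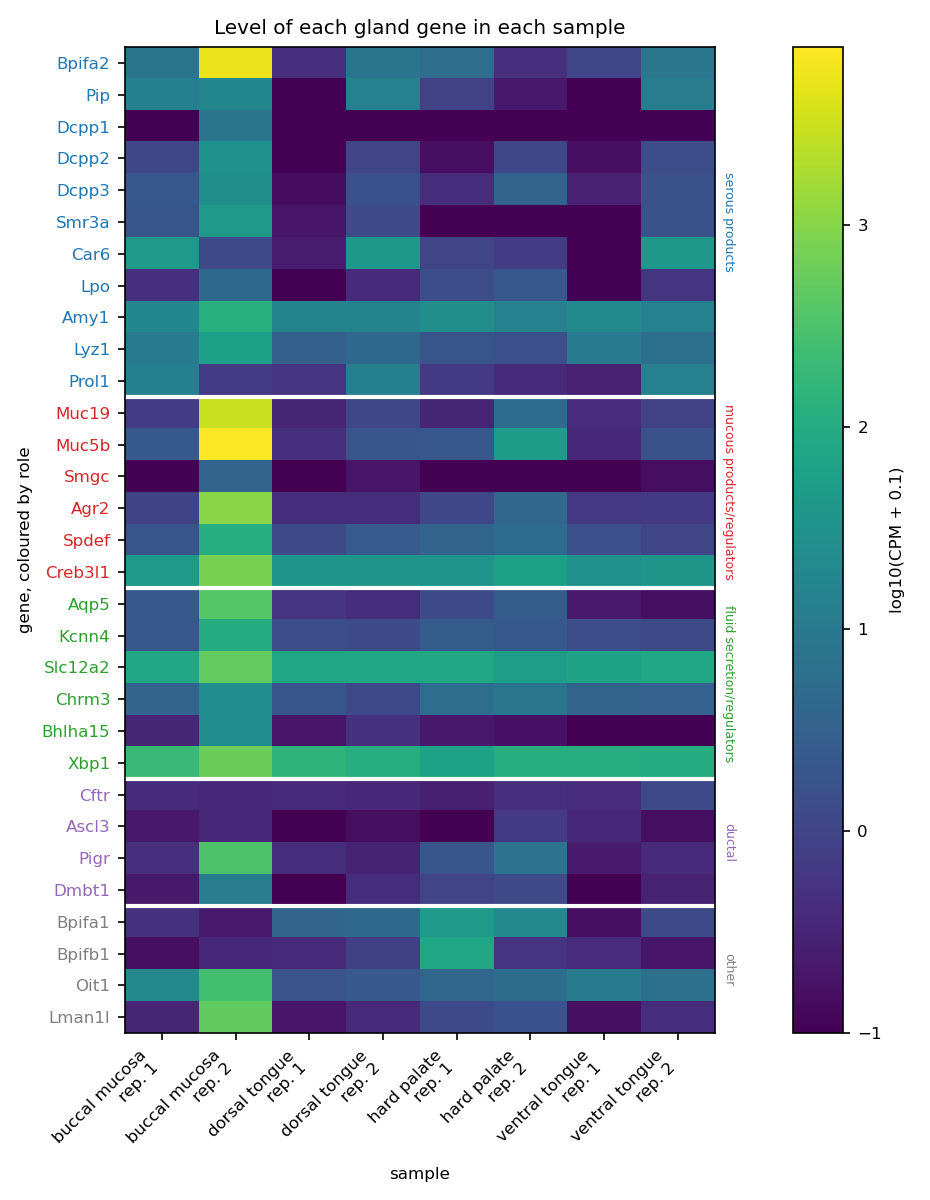
Level of each of the 31 gland genes (rows, ordered and coloured by role) in each of the 8 samples (columns), as log10 of CPM plus 0.1. Buccal mucosa replicate 2 is the brightest column for most rows. Car6 and Prol1 are instead highest in the 3 samples with the section 10 peak, and Bpifa1 and Bpifb1 in hard palate.

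The serous products summed to 5682 CPM in buccal mucosa replicate 2 and to 19.6 to 109 CPM elsewhere. Almost all of it was Bpifa2, parotid secretory protein, a lipid-binding antibacterial protein of saliva. Bpifa2 stood at 7.46 CPM in buccal mucosa replicate 1 and 5376 in replicate 2, 0.377 and 7.82 in dorsal tongue, 5.52 and 0.379 in the hard palate, and 0.989 and 8.67 in ventral tongue. Without sections 10 and 17, Bpifa2 was at 0.472 CPM in buccal mucosa replicate 1, 0.278 in dorsal tongue replicate 2 and 0.435 in ventral tongue replicate 2, the 3 samples with the shared section. Hard palate replicate 1, whose Bpifa2 UMIs lay mostly in section 4, stayed at 5.72 CPM. Amy1, salivary amylase, was present at every site: 19.3 and 120 CPM in buccal mucosa, 15.5 and 15.8 in dorsal tongue, 26.1 and 13.5 in the hard palate, and 20.4 and 14.6 in ventral tongue. Lyz1, a lysozyme, was at 10.6 and 56.6 CPM in buccal mucosa, 3.02 and 4.08 in dorsal tongue, 1.75 and 1.48 in the hard palate, and 10.4 and 6.19 in ventral tongue. For both genes buccal mucosa replicate 2 was the highest sample, and for Lyz1 the hard palate samples were the lowest pair.

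The remaining serous products were of lower level and split by library. Dcpp2, Dcpp3 and Smr3a (demilune cell and submaxillary gland proteins) reached 30.7, 27.5 and 41.1 CPM in buccal mucosa replicate 2 and at most 3.41 CPM elsewhere. Dcpp1 was detected in that sample alone, at 7.41 CPM, at least 41.7-fold higher than the 3 UMIs that a count of 0 allows in buccal mucosa replicate 1. Lpo, lactoperoxidase, was highest there too, at 4.60 CPM, with 1.35 and 2.05 CPM in the hard palate samples. Car6 and Prol1 were instead highest in the 3 samples with the section 10 peak. Car6 was at 1.28 CPM in buccal mucosa replicate 2 and at 41.4, 39.2 and 39.9 CPM in the 3 samples with the section 10 peak. Prol1 was at 0.639 CPM there and at 12.7, 12.6 and 13.3 CPM in the same 3 samples. Pip was at 17.4 CPM in buccal mucosa replicate 2, spread over all 20 sections, and at 11.8 to 13.7 CPM in the 3 samples with the peak. Without sections 10 and 17 the higher levels in these 3 samples were gone. Car6 was then at 0.472, 0.723 and 0.598 CPM in them and 1.43 in buccal mucosa replicate 2, from 10 UMIs. Prol1 was at 0.337, 0.278 and 0.272 CPM against 0.572, from 4 UMIs. Pip was at 0.135, 0.278 and 0.109 CPM against 17.9.

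The mucous group was the largest in buccal mucosa replicate 2, at 12524 CPM against 31.2 to 123 CPM elsewhere. Muc5b, a gel-forming mucin, stood at 2.31 CPM in buccal mucosa replicate 1 and 7630 in replicate 2, 0.377 and 1.72 in dorsal tongue, 2.03 and 48.4 in the hard palate, and 0.247 and 1.51 in ventral tongue. The authors' estimated transcripts, which correct for UMI collisions, put Muc5b at 12676 CPM in buccal mucosa replicate 2, and its reads at 9685 CPM. By UMIs without sections 10 and 17, Muc5b was at 0.202 CPM in buccal mucosa replicate 1. It was then at 0.0556 CPM in dorsal tongue replicate 2 and 0.109 in ventral tongue replicate 2. Muc19, the other large mucin of mouse sublingual and minor glands, was at 2967 CPM in buccal mucosa replicate 2, 4.89 in hard palate replicate 2, and between 0.225 and 1.03 in the other 6 samples. Agr2, a disulfide isomerase needed for mucin folding, was at 1038 CPM in buccal mucosa replicate 2, at 4.02 in hard palate replicate 2 and between 0.330 and 1.01 in the rest. In all 3 genes the same 2 samples came first and second, also without sections 10 and 17. Muc19 was then between 0.135 and 0.340 CPM in the other 6 samples.

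Spdef, a transcription factor of mucous cells, was at 109 CPM in buccal mucosa replicate 2, 3.78 and 4.89 in the hard palate, and 0.926 to 2.41 in the other 5 samples. Creb3l1, a membrane-bound transcription factor of secretory cells, was less restricted: 44.1 and 777 CPM in buccal mucosa, 37.1 and 35.8 in dorsal tongue, 34.3 and 60.7 in the hard palate, and 28.6 and 38.4 in ventral tongue. Its samples outside buccal mucosa replicate 2 lay close together. Smgc, a submandibular gland protein whose gene shares its locus with Muc19, reached only 3.58 CPM, in buccal mucosa replicate 2, with 0.0984 CPM at most elsewhere.

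Genes of fluid secretion separated into gland-restricted and broad ones. Aqp5, the water channel of the acinar membrane, was at 2.07 and 397 CPM in buccal mucosa, 0.471 and 0.344 in dorsal tongue, 1.18 and 2.62 in the hard palate, and 0.124 and 0.0487 in ventral tongue. Kcnn4, the calcium-activated potassium channel of acinar cells, was at 107 CPM in buccal mucosa replicate 2 and 1.22 to 2.65 CPM in the other 7. Bhlha15, the acinar transcription factor Mist1, was at 24.0 CPM there and at most 0.394 elsewhere. By contrast Slc12a2, the sodium-potassium-chloride cotransporter that loads chloride into secretory cells, was at 79.7 and 518 CPM in buccal mucosa, 77.5 and 79.3 in dorsal tongue, 80.5 and 52.5 in the hard palate, and 63.7 and 84.9 in ventral tongue. Xbp1, the transcription factor of the unfolded protein response, was at 196 and 615 CPM in buccal mucosa, 151 and 111 in dorsal tongue, 63.0 and 111 in the hard palate, and 113 and 105 in ventral tongue. Chrm3, the muscarinic receptor that drives salivation, was at 23.1 CPM in buccal mucosa replicate 2, 5.52 and 8.15 in the hard palate, and 1.08 to 3.85 in the other 5 samples. Buccal mucosa replicate 2 was 152 times the highest other sample for Aqp5 but 6.11 times for Slc12a2 and 3.14 times for Xbp1.

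Among the ductal members, Pigr and Dmbt1 were highest in buccal mucosa replicate 2, and Cftr and Ascl3 were not. Pigr, the receptor that carries IgA across gland epithelium, was at 0.355 and 326 CPM in buccal mucosa, 0.330 and 0.197 in dorsal tongue, 1.92 and 7.01 in the hard palate, and 0.124 and 0.292 in ventral tongue. Dmbt1, a scavenger receptor glycoprotein of saliva, was at 11.5 CPM in buccal mucosa replicate 2, 0.958 and 1.21 in the hard palate, and at most 0.344 elsewhere. Cftr, the chloride channel of ducts, and Ascl3, a transcription factor of duct cells, were low in every sample: in buccal mucosa replicate 2 each had 0.255 CPM, from 2 UMIs. Their highest levels were 1.07 CPM for Cftr, in ventral tongue replicate 2, and 0.569 CPM for Ascl3, in hard palate replicate 2. Of all member UMIs in buccal mucosa replicate 2, mucous genes took 59.7% (95% Wilson interval 59.5 to 59.9) and serous genes 27.1% (26.9 to 27.3). Fluid secretion genes took 8.03% and ductal genes 1.61%. Those intervals cover counting error only, and the shares depend on the unit. By reads the mucous genes were at 13866 CPM and the serous genes at 8617, of 24108 for all members. By estimated transcripts they were at 16951 and 6811, of 25883.

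Among the other members, Lman1l was at 495 CPM in buccal mucosa replicate 2, 1.18 and 1.63 in the hard palate, and 0.0618 to 0.341 in the other 5 samples. Oit1, which encodes a secreted protein, was highest in both buccal mucosa samples. It was at 19.9 and 252 CPM there and at 1.65 and 2.17 in dorsal tongue. The hard palate samples had 3.94 and 5.12 CPM and the ventral tongue samples 9.64 and 6.24. Xbp1, Lyz1 and Smr3a were also highest in both buccal mucosa samples. Without sections 10 and 17 this order held for Oit1 and Xbp1 only. Lyz1 was then at 9.23 CPM in buccal mucosa replicate 1 and 10.2 in ventral tongue replicate 1. Smr3a then had 0 UMIs in buccal mucosa replicate 1. Bpifa1 and Bpifb1, known from the airways and nasal glands, were near 0 in the gland-rich sample, with 1 and 2 UMIs. Bpifa1 stood at 41.5 and 19.4 CPM in hard palate, 3.82 and 4.38 in dorsal tongue, 0.415 and 0.128 in buccal mucosa, and 0.0618 and 1.07 in ventral tongue. Bpifb1 was at 73.6 CPM in hard palate replicate 1 and between 0.0593 and 0.738 in every other sample, hard palate replicate 2 included at 0.455.

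**Figure D3:**
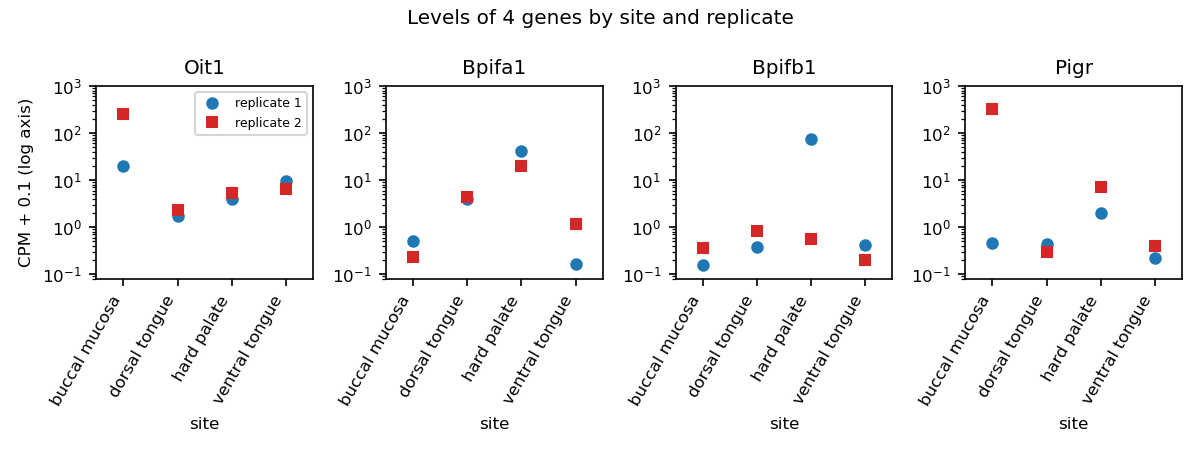
CPM plus 0.1 (log axis) of Oit1, Bpifa1, Bpifb1 and Pigr by site, with circles for replicate 1 and squares for replicate 2. Oit1 is highest in both buccal mucosa samples and Bpifa1 in both hard palate samples, while Bpifb1 and Pigr each have 1 sample far above the rest.

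Site differences were tested with edgeR's quasi-likelihood test on UMI counts summed over the 20 sections, with Benjamini-Hochberg adjustment over all genes tested. Of the 31 members, 26 passed the filter on low counts. Any difference between the 4 sites was called for 2 members, Bpifa1 (adjusted p = 0.0337) and Oit1 (adjusted p = 0.0443), where 4.76% of the 18609 genes tested were called. In buccal mucosa against the mean of the other 3 sites, 1 member was called, where 0.72% of all genes were: Oit1 was higher by 5.01 on the log2 scale (SE 0.73, edgeR adjusted p = 0.0484). Where a sample is left out, its site keeps 1 sample, which is assumed to vary like the samples of the other sites. Without buccal mucosa replicate 2, Oit1 was called at 2.21 (SE 0.32, edgeR adjusted p = 0.0412). The call was lost without any 1 of the 6 samples of the other sites, with differences of 4.87 to 5.09 and edgeR adjusted p from 0.134 to 0.215. It was also lost with RLE scaling (edgeR adjusted p = 0.0503), with the replicate block (0.114), in sections 1 to 10 alone (0.0691) and without sections 10 and 17 (0.0518).

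The members with the largest folds in buccal mucosa were not called in this test, and their 2 buccal mucosa replicates lay far apart. Muc19 was 4552-fold and Muc5b 3302-fold higher in replicate 2 than in replicate 1. Without sections 10 and 17, Muc19 was at 0.135 CPM in replicate 1, from 2 UMIs, and at 2974 CPM in replicate 2. Muc5b was then at 0.202 CPM, from 3 UMIs, and at 7601 CPM. The size of both folds therefore depends on these sections. With all sections, Muc19 differed by 10.54 on the log2 scale with an SE of 2.13 (edgeR adjusted p = 0.0768). Muc5b differed by 10.35 (SE 2.18, edgeR adjusted p = 0.0823). Bpifa2 differed by 9.41 (SE 2.05, edgeR adjusted p = 0.0868) and Aqp5 by 8.88 (SE 1.42, edgeR adjusted p = 0.0526). DESeq2 on the same counts called 19 members, where it called 7.48% of all genes. EdgeR called 24 members without buccal mucosa replicate 1, where 25.2% of all genes were called, but that fit compares 1 library with the other sites. It tested 31 members in place of 26. Dcpp1, Smgc and Bhlha15 entered only through the sample where they were high, so a call of theirs adds no support. They had 58, 28 and 188 UMIs in buccal mucosa replicate 2. In the other 7 samples Dcpp1 had 0, Smgc at most 2 and Bhlha15 at most 8. Without replicate 2, 1 member was called, where 0.821% of all genes were.

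In hard palate against the mean of the other 3 sites, edgeR called 2 members, both higher, where 9.76% of all genes were called. Bpifa1 was higher by 4.78 on the log2 scale (SE 0.64, edgeR adjusted p = 0.00789), and both hard palate samples lay above all 6 others. Bpifb1 was higher by 6.96 (SE 1.38, edgeR adjusted p = 0.026), which rested on hard palate replicate 1: without it the difference was 0.67 and the adjusted p 0.836, and for Bpifa1 4.17 and 0.0844. Without buccal mucosa replicate 2, 6 members were called in hard palate, where 16.4% of all genes were. Pigr was then higher by 3.72 (SE 0.59, edgeR adjusted p = 0.00769), Lman1l by 2.40 (SE 0.63, adjusted p = 0.0445) and Aqp5 by 1.88 (SE 0.48, adjusted p = 0.0418), beside Bpifa1 and Bpifb1. Lyz1 was lower by 2.37 on the log2 scale, at -2.37 (SE 0.37, edgeR adjusted p = 0.00682). For Pigr and Lman1l both hard palate samples lay above the other 5 samples of this fit, and for Aqp5 buccal mucosa replicate 1 lay between them. Any difference between sites was then called for 5 members (Aqp5, Bpifa1, Lyz1, Oit1 and Pigr), where 12.3% of all genes were.

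For dorsal tongue edgeR called 0 members, where 0.838% of all genes were called. An unadjusted p under 0.05 was reached by 2 of 26 members and by 1691 of all 18609 genes. DESeq2 called 1 member, where it called 2.9% of all genes. For ventral tongue edgeR called 0 members, where 1.29% of all genes were called. An unadjusted p under 0.05 was reached by 2 of 26 members and by 2194 of all 18609 genes. DESeq2 called 2 members, where it called 4.56% of all genes. Without buccal mucosa replicate 2, Oit1 was lower in dorsal tongue, at -1.98 on the log2 scale (SE 0.33, edgeR adjusted p = 0.0283), where 3.35% of all genes were called. Aqp5 was then lower in ventral tongue, at -3.62 (SE 0.71, edgeR adjusted p = 0.0312), where 6.69% were.

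Other gland genes, from lists of 25 further secreted products, 28 ductal genes and 33 genes of the secretory pathway, gave 0 calls among 15, 21 and 30 tested in buccal mucosa by edgeR. In hard palate 2 secreted products were higher (Lipf and Ltf, a gastric-type lipase and lactoferrin), 2 ductal genes were higher and 1 lower, and 1 secretory pathway gene was higher, beside the 9.76% called over all genes. Ltf had 2828 and 2508 UMIs in the hard palate samples, but Lipf had 3290 in replicate 1 and 5 in replicate 2, fewer than the 54 in dorsal tongue replicate 2, so its call rested on 1 library. The secreted products summed to 24857 CPM in buccal mucosa replicate 2, against 188 to 706 elsewhere, led by Tff2, a trefoil factor of mucus, at 9542 CPM, Bpifb2 at 6195 and Gp2, a glycoprotein of secretory granules, at 5416. Tff2 reached 4102 UMIs in a section, near the level where counts flatten, and the list's sum in this sample was 51195 CPM by estimated transcripts and 70174 by reads. The ductal list was far less different, at 1643 CPM against 594 to 1031, and held genes of surface epithelium as well: Scnn1a, a sodium channel subunit, was at 13.7 CPM there and 86.0 to 155 elsewhere, and Cldn4, a claudin, at 0.894 against 48.9 to 164. The secretory pathway list stood at 5724 CPM against 2437 to 3393. The plasma cell list was lower in buccal mucosa replicate 2, at 63.5 CPM against 207 to 586. Its highest gene was Sdc1, which epithelium also expresses, at 27.5 CPM there and 196 to 579 elsewhere. The myoepithelial list summed to 1507 CPM there against 3378 to 9517. Its keratins, which surface epithelium shares, were low there (Krt14 at 77.3 CPM against 1053 to 3736), but Acta2, its smooth muscle actin, was at 881 CPM there and 85.9 to 397 elsewhere.

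Within buccal mucosa replicate 2 the gland signal ran through the whole block. Muc5b, Muc19, Agr2 and Bpifa2 were found in all 20 sections. Section depth ranged from 129245 UMIs, in section 3, to 865869, in section 12, and Muc5b reached 3999 UMIs and Bpifa2 3490 in section 4, close to the level where counts flatten. Their CPM is therefore understated most in the deep sections, and their order over the sections cannot be told apart from depth. Muc19 lay between 2454 CPM, in section 12, and 3657, in section 6, and Muc5b between 4494, in section 12, and 12828, in section 3. Bpifa2 lay between 3422, in section 12, and 11575, in section 3, with a second rise to 8057 in section 18. Aqp5 ranged from 254 to 548 CPM and Pigr from 193 to 442. In the plot of the 5 roles by section, mucous genes lay above serous genes in every section of this sample.

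Smr3a, at 322 UMIs, was found in 13 sections of this sample. It had 31, 10, 34, 129 and 15 UMIs in sections 1 to 5, 61 and 35 in sections 17 and 18, and at most 2 in each of the others. Amy1 was also highest in section 3, at 271 CPM, and section 4, at 239, and lay at 125 to 146 in sections 17 to 19. Lyz1 moved the opposite way: it was highest in section 12, at 105 CPM, and lowest in section 18, at 4.71 CPM. Over the 20 sections, which share 1 block, Bpifa2 had a Spearman rho of 0.684 with Amy1, 0.572 with Smr3a and -0.633 with Lyz1, given as descriptions. These values use the order of Bpifa2 over the sections, which cannot be told apart from depth. Amy1, Smr3a and Lyz1 stayed far below the level where counts flatten, with at most 171, 129 and 91 UMIs in a section. These 3 serous products were not of 1 pattern.

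Other markers changed along the same block. Sebocyte genes fell from 4681 CPM in section 1 to 609 in section 19, and Elovl3 of that list, a fatty acid elongase, had 20 to 224 UMIs in each of sections 1 to 10 and at most 2 in each of the others. Adipocyte genes peaked at 9759 CPM in section 8 and were lowest in section 20, at 2500. Skeletal muscle genes were lowest in section 4, at 29405 CPM, and highest in section 20, at 74974. Keratinocyte genes fell from 2884 CPM in section 1 to 328 in section 12. Their part in the gland values was not tested.

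**Figure D4:**
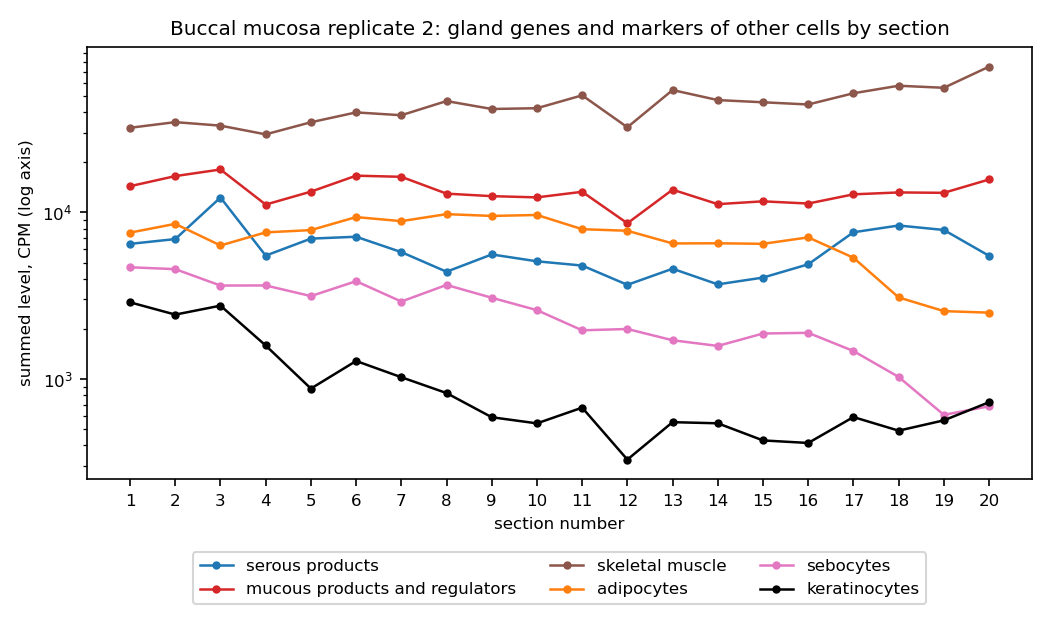
Summed level in CPM (log axis) of the serous and mucous gland genes and of 4 lists of markers of other cells in the 20 sections of buccal mucosa replicate 2. The mucous genes stay between 8603 and 18090 CPM and the serous genes between 3674 and 12279, while sebocyte genes decline from section 1 and muscle genes are highest in section 20.

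The non-member genes whose profile over these 20 sections was most like the mean profile of the 20 members of at least 20 CPM, among 7138 genes of that level, were Slc12a8 (Spearman rho 0.917), Ly6e, Tmbim6, Galnt12, Slc44a4, Esrp1, P2rx4, Cds1, Rrbp1 and Tgoln1 (rho 0.877). Slc12a8 was at 71.5 CPM in this sample and 0.433 to 1.27 in the other 7, and Galnt12, an enzyme that starts mucin-type glycosylation, at 173 against 3.58 to 13.6. Slc44a4 was at 62.2 CPM against 0 to 1.14, and P2rx4, an ATP receptor, at 233 against 8.09 to 16.8. Esrp1, an epithelial splicing factor, was instead lower in this sample, at 48.3 CPM against 114 to 417, as was Cds1, at 28.1 against 42.6 to 82.8. Among the members, Spdef (rho 0.919), Creb3l1 (0.875) and Dcpp2 (0.868) followed the mean of the others most closely, and Muc5b (-0.015) and Lyz1 (-0.143) least. The sections come from 1 block and differ in depth. The member mean had a rho of 0.138 with the total UMIs of the section, but its parts went in opposite directions: the summed CPM of the mucous genes had a rho of -0.797 with that total, the serous genes -0.265 and the ductal members 0.618.

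**Figure D5:**
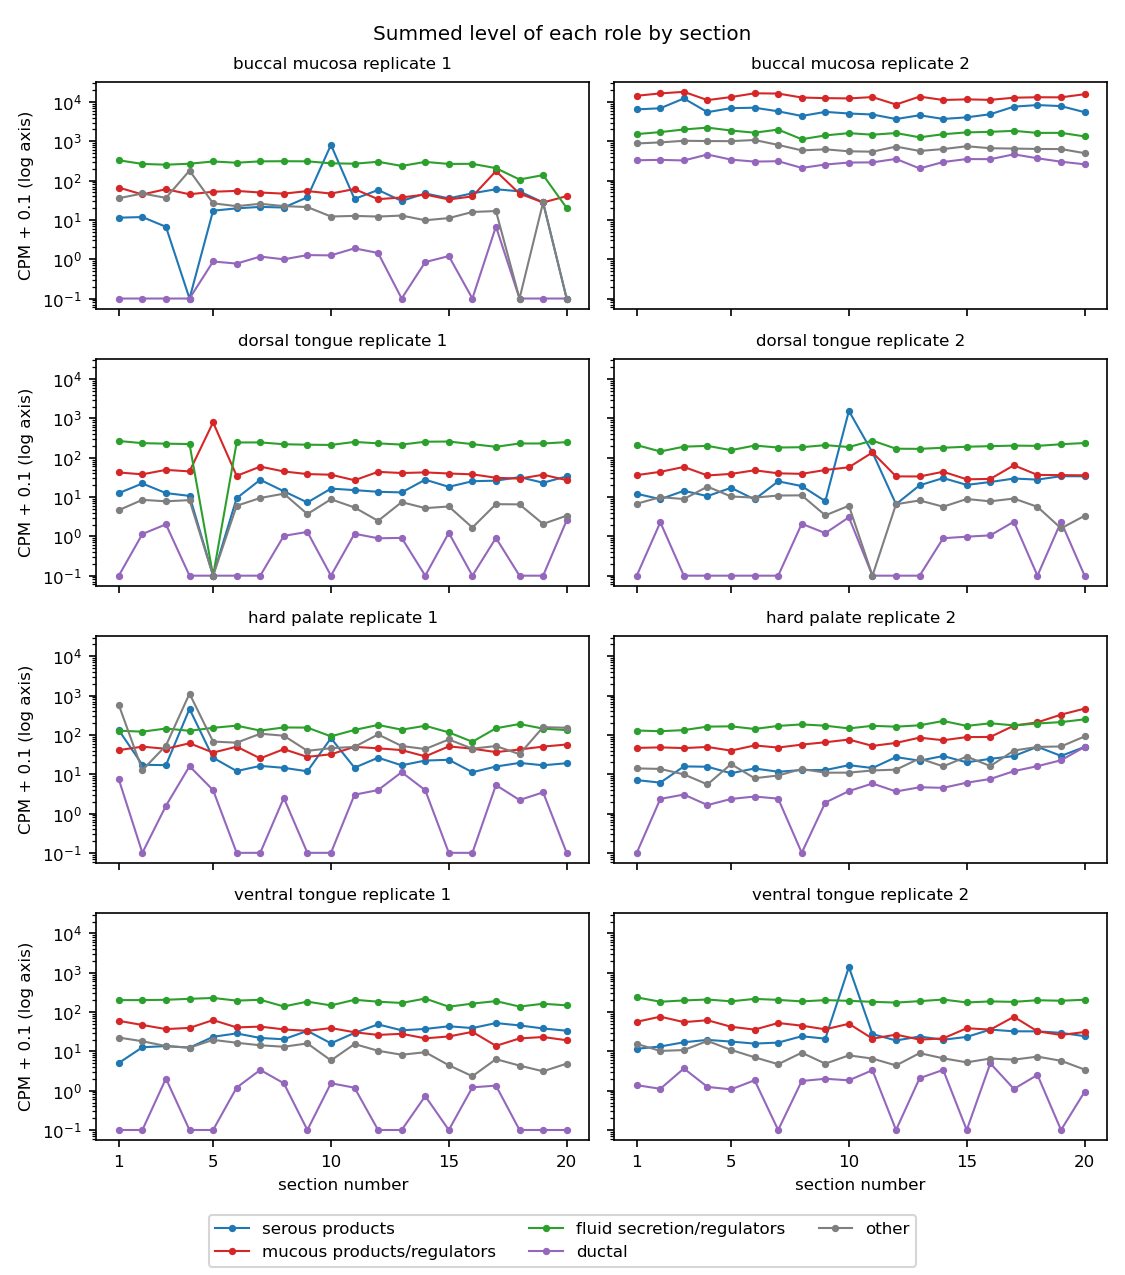
Summed level of each role, as CPM plus 0.1 (log axis), against section number in the 8 samples. Serous genes spike in section 10 of buccal mucosa replicate 1, dorsal tongue replicate 2 and ventral tongue replicate 2 and in sections 1 and 4 of hard palate replicate 1, while mucous and ductal genes rise over sections 17 to 20 of hard palate replicate 2. Section 5 of dorsal tongue replicate 1 holds only 2523 UMIs.

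In hard palate the 2 replicates carried different gland genes in different sections. Replicate 1 had most UMIs of Bpifb1 and of the serous products Amy1 and Bpifa2 in sections 1 and 4. Bpifb1 had 611 UMIs in section 1 and 468 in section 4, out of 1306, and its next section held 74. Amy1 had 118 and 128 UMIs in those sections out of 463, and Bpifa2 13 and 73 out of 98. Lipf had 1506 and 1491 UMIs in the same sections out of 3290, and Prb1, a proline-rich salivary protein, 27 and 23 out of 51; neither is a member. Skeletal muscle genes were also high in section 4, at 4034 CPM, and section 1, at 1852, against a median of 126 CPM over the sections, but were highest in section 19, at 7240, where Bpifb1 had 2 UMIs. The part of muscle in the gland values was not tested. Muc5b had 5 and 9 UMIs in these sections, out of 36, and Muc19 0 and 2 out of 4. Agr2 had 1 and 0 out of 18. Of the other serous products in this sample, Lpo had 10 of its 24 UMIs in section 1. Lyz1 had 12 UMIs in sections 1 to 10 and 19 in sections 11 to 20. Pip, Car6 and Prol1 had only 14, 17 and 10 UMIs in all sections, and Smr3a and Dcpp1 had 0.

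Replicate 2 had most UMIs of the mucous genes Muc5b, Muc19 and Agr2 and of the ductal gene Pigr in sections 17 to 20. Muc5b had 167, 194, 226 and 601 UMIs there, out of 1277, and Muc19 had 12, 10, 36 and 56 out of 129. Agr2 had 13, 20, 15 and 48 out of 106, and Pigr 21, 25, 17 and 84 out of 185. Each of the 4 genes was highest in section 20. Dcpp3 had 36, 5 and 36 UMIs in sections 18, 19 and 20, out of 90, and Aqp5 22 of its 69 in section 20. Tff2 rose with them, to 1077 UMIs in section 20. Markers of airway epithelium moved in the same sections: Muc5ac, an airway and gastric mucin, reached 61 UMIs and Foxj1, the regulator of motile cilia, 35 UMIs, both in section 20. The airway list as a whole, of which 10 of 10 genes were detected here, ran from 871 to 1407 CPM and was highest in section 19, and adipocyte genes rose from 29.4 CPM in section 3 to 475 in section 17. Their part in the result was not tested.

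Bpifa1 was spread more evenly. In hard palate replicate 1 it had UMIs in all 20 sections, from 4 to 113, the highest in section 7. In hard palate replicate 2 it had from 2 to 128, the highest in section 20. In both dorsal tongue samples it had 0 to 9 UMIs in each section, with 19 sections detected in each.

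Sections 1 to 10 were compared with sections 11 to 20 with the sample as a block, again with edgeR. Of the 31 members, 29 passed the filter and 10 were called, where 27.6% of the 17905 genes tested were. Higher in sections 1 to 10 were 6 serous products (Car6, Prol1, Pip, Smr3a, Bpifa2 and Lpo), Spdef and Bpifb1. Chrm3 and Lyz1 were lower there, at -0.65 (SE 0.18, edgeR adjusted p = 0.0198) and -0.69 (SE 0.20, edgeR adjusted p = 0.0243) on the log2 scale; Chrm3 was lower in 7 of 8 samples and Lyz1 in 6 of 8. Bpifb1 was higher by 2.64 (SE 0.46, edgeR adjusted p = 0.00151), in 7 of 8 samples. It had 1193 against 113 UMIs in hard palate replicate 1 and 13 against 2 in dorsal tongue replicate 2. The others of the 7 samples had at most 5 UMIs in either section set. In ventral tongue replicate 1 the order held only by CPM, with 2 against 3 UMIs. The difference was 1.35 without hard palate replicate 1, with an edgeR adjusted p of 0.133. Car6 had the largest difference, at 5.08 (SE 0.95, edgeR adjusted p = 0.00283), and was higher in 5 of 8 samples.

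Leaving out sections 10 and 17 left 5 called members (Bpifb1, Chrm3, Lyz1, Smr3a and Spdef), where 28.1% of all genes were called. Smr3a then had 260 UMIs in buccal mucosa replicate 2 and 0 to 2 in each other sample, so its call rested on 1 library. Without these sections the difference of Car6 was -0.08 (edgeR adjusted p = 0.91), of Pip 0.52 (edgeR adjusted p = 0.544) and of Bpifa2 0.60 (edgeR adjusted p = 0.408). The higher values of these 3 genes in sections 1 to 10 therefore rested on section 10. Without buccal mucosa replicate 2, 10 members were called, where 29% of all genes were: Muc5b (-3.22, SE 0.71, edgeR adjusted p = 0.00593) and Agr2 (-1.78, SE 0.53, edgeR adjusted p = 0.0272) were then lower in sections 1 to 10, and Lpo and Spdef were not called. Of the Muc5b UMIs in buccal mucosa replicate 1, dorsal tongue replicate 2 and ventral tongue replicate 2, 36 of 39, 34 of 35 and 29 of 31 lay in section 17. In hard palate replicate 2, 1235 lay in sections 11 to 20 and 42 in sections 1 to 10. The fit without buccal mucosa replicate 2 was not repeated without sections 10 and 17. In the 4 sites compared with each other, no member's difference between section sets was called as dependent on the site by edgeR. That was 0 of 29 members, where 0.408% of all genes were called. An unadjusted p under 0.05 was reached by 11 members and by 2699 of all 17905 genes. DESeq2 called 1 member, where it called 2.34% of all genes. Without buccal mucosa replicate 2, edgeR called Oit1 (adjusted p = 0.0124) and Car6 (adjusted p = 0.01), where 2.93% of all genes were called. Car6 had 691, 784 and 809 UMIs in section 10 of the 3 samples with that peak, and 8, 13 and 11 in their other sections. Its dependence on the site in this fit was not repeated without section 10. Oit1 was at 24.8 CPM in sections 1 to 10 and 11.3 in sections 11 to 20 of buccal mucosa replicate 1, and at 14.3 and 6.68 and at 8.36 and 4.05 in the ventral tongue samples. In hard palate the order was the opposite, at 2.03 and 6.35 and at 2.92 and 6.77.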

How the data were processed

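For each gene and section the authors deposited UMI counts, read counts and an estimated count, in which UMI collisions were allowed for. Per the submitters' processing notes, reads were trimmed with Trim Galore 0.6.10 and aligned with STAR 2.7.9a to GRCm38. The counting tool was not given in the sources used here. UMI counts were the main unit; estimated counts were rounded for the fits. The 413 entries that name several genes were left out of gene names but kept in totals; the only such entry with a member held 1 UMI. Sections were summed per sample, CPM computed, and edgeR 4.0.16 (R 4.3.3) run with filterByExpr, TMM scaling and Benjamini-Hochberg adjustment at 0.05; DESeq2 1.42.0, other scalings, units, filters, sections and left-out samples were alternatives. The script was tested on simulated data. Intervals cover counting error only. The members and lists were chosen with earlier results of these data known. By the rule for named genes, values in every sample are given for members that reach 50 CPM in a sample or pass the any-site test. From each other list up to 4 genes of highest mean level are named, plus the 10 genes most like the members over the sections of buccal mucosa replicate 2. Lipf, Ltf, Prb1, Foxj1, Elovl3, the keratinocyte gene Krt5 and the members below that level given by sample or section were chosen after their values were seen.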

Additional observations from a re-analysis of the deposited data

How the results depend on the processing

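In buccal mucosa, where edgeR called 1 member, RLE scaling called 0, no filter on low counts 29, DESeq2 19, read counts 2, estimated transcripts 2, the replicate block 0, sections 1 to 10 alone 0, sections 11 to 20 alone 8, and leaving out sections 10 and 17 (chosen after the data were seen) 0. Leaving out 1 sample gave 0 to 24. For dorsal tongue (0), no filter gave 17, DESeq2 1 and leaving out 1 sample 0 to 9. For hard palate (2), no filter gave 14, DESeq2 5 and leaving out 1 sample 0 to 9. For ventral tongue (0), no filter gave 17, DESeq2 2 and leaving out 1 sample 0 to 8. For any site difference (2), no filter gave 29, DESeq2 17, sections 1 to 10 alone 1, sections 11 to 20 alone 5 and leaving out 1 sample 0 to 23. For sections 1 to 10 against 11 to 20 (10), no filter gave 17, sections 1 to 5 against 16 to 20 gave 4, leaving out sections 10 and 17 gave 5, and leaving out 1 sample gave 6 to 12. For its dependence on the site (0), no filter gave 16, DESeq2 1 and leaving out 1 sample 0 to 8. Where an alternative has fewer samples or sections the count rests on less data. For the others the cause was not tested. Over all genes, no filter called 7.7% in buccal mucosa, 3.82% in dorsal tongue, 11.1% in hard palate and 3.94% in ventral tongue. For any site difference, the section sets and their dependence on the site it called 13.5%, 16.1% and 5.84%. DESeq2 called 7.48%, 2.9%, 16.7% and 4.56% for the sites in that order, 17.7% for any difference and 2.34% for the dependence. RLE scaling called 0.489% in buccal mucosa. Shares for the other settings are not given here. One gene changed direction: Car6, at -0.08 (log2) between the section sets without sections 10 and 17. The replicate differences of dorsal and ventral tongue correlated over 18609 genes (r = 0.53), those of buccal mucosa and hard palate less (0.13), and the other 4 pairs of sites gave -0.26 to -0.08. Since not every pair was above 0.1, the numbers were not taken as pairing the samples; what the tongue sites share by number was not tested. The replicate block lost the buccal mucosa call of Oit1 (4.63, adjusted p = 0.114) and the hard palate call of Bpifb1 (6.11, adjusted p = 0.111), and for any site difference it called Dcpp2, Dcpp3 and Smr3a in place of Oit1 and Bpifa1. Of the 20 role sums per site, 9 moved by more than 1 SD of the replicates with read counts and 8 with estimated transcripts. Counts level off near 4240 UMIs in a section, which limits the highest levels.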
